A study of Mus musculus with 12 samples.

Results

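Broad, constitutively accessible regions of primary mouse cortical neurons were examined by ATAC-seq, an assay in which the Tn5 transposase cuts DNA that is not packed into nucleosomes. The peaks of 12 libraries were merged wherever they overlapped by 1 bp or more, and regions were selected on their width: those on chromosomes 1 to 19 that had a peak in each of the 12 libraries and were 1500 bp wide or more after merging. This rule kept 77 of 71153 constitutive regions (0.108%) and of 258721 regions in all (0.0298%). Every region of 1500 bp or more had a peak in all 12 libraries, so the requirement for all 12 removed 0 regions. Because merged width and membership came from the same peaks, the widths and the numbers of libraries with a peak are given here as a description, with no test.

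The neurons came from cortices of wild-type C57BL/6 embryos at E18 and were kept in culture. The 12 libraries form 4 groups of 3 biological replicates, and by their labels they share batch 1. According to the study's methods a pregnancy served as the biological replicate and its cultures were divided at random among groups, so libraries of different groups may share a pregnancy, and whether equal replicate numbers mark one is not given in the sources used here. PBS was the vehicle control, and the PFF group received preformed fibrils of human α-synuclein, the protein that aggregates in Parkinson's disease. The other groups received PFF with either MLi-2, which blocks the kinase LRRK2, over the last 5 days or antisense oligonucleotides (PFF+Rab5 ASO) that according to the methods target Rab5a and Rab5b, GTPases of early endosomes, over the last 3 days of a 7-day treatment. A free-text field of the libraries with MLi-2 or Rab5 ASO names PBS in place of PFF, and the titles and treatment fields, which name PFF, were followed. The cultures hold no inherited model of disease, and the fibrils are of human protein on mouse neurons. Of the promoters of neuronal marker genes, 9 of 9 had a peak in all 12 libraries, against 7 of 8 for astrocytes, 4 of 7 for the oligodendrocyte lineage and 0 of 8 for microglia.

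Most accessible promoters show up in ATAC-seq as a short nucleosome-depleted stretch at the transcription start site. Wider stretches are known from CpG island promoters, where CG dinucleotides escape DNA methylation and initiation can occur at several start sites. In a peak list, a wide region may appear as 1 long peak or as a chain of short peaks whose joints differ between libraries. The number of peaks and the covered length in each library were therefore recorded beside the merged width.

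To show the sequences, 5 windows of 300 bp around the region's summit were chosen, from a common CpG-rich promoter and from regions that stood out in height, motif copies or position. All are from GRCm38 (RefSeq sequence), on the plus strand, 5′ to 3′. The first window, at the promoter of the transcription factor gene Sp4 (chr12:118302052-118302351), stands for the common type, and its capitals mark 31 CG dinucleotides.
Sp4: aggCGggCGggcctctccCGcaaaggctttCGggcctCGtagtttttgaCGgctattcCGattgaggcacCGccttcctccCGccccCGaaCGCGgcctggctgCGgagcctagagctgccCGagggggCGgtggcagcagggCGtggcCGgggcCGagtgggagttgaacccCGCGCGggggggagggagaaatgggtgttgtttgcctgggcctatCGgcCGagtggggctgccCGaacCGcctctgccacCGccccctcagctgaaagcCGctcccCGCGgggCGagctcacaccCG
The next windows lie at a pair of cytokine receptor genes, Crlf2 (chr5:109557270-109557569) and Il3ra (chr14:14347391-14347690), and are shown because they are among the few members with a low peak height. Their capitals mark GGAAGT on either strand (ACTTCC where it lies on the minus strand), the core letters read by ETS factors, with 4 and 2 copies and with 13 and 7 CG dinucleotides.
Crlf2: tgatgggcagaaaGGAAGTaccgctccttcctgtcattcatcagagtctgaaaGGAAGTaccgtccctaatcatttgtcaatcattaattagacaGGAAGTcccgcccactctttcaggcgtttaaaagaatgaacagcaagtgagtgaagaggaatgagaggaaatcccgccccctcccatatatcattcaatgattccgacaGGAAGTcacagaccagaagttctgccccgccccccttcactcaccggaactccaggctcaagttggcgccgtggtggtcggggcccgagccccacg
Il3ra: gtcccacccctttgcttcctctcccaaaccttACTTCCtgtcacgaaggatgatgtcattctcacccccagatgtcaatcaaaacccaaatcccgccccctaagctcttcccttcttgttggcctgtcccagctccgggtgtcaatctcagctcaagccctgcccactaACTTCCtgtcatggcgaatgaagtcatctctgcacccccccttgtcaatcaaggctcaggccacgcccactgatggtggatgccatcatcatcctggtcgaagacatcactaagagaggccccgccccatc
The window in an intron of the imprinted gene Peg3 (chr7:6728385-6728684) has 10 CG dinucleotides, and its capitals mark 2 copies of the YY1 box GCCATCTT, both on the minus strand.
Peg3: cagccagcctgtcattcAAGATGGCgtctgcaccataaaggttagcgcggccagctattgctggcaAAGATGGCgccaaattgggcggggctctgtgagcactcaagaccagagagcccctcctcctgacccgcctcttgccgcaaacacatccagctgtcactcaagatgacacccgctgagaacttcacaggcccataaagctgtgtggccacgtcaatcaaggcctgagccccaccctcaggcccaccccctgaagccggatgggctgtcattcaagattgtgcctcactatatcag
The last window (chr7:98815219-98815518) lies in a region 18452 bp from Wnt11, the nearest gene of the GENCODE annotation used for naming, and shows in capitals the 72 bases of the tRNA-Pro gene n-TPtgg8.
Wnt11: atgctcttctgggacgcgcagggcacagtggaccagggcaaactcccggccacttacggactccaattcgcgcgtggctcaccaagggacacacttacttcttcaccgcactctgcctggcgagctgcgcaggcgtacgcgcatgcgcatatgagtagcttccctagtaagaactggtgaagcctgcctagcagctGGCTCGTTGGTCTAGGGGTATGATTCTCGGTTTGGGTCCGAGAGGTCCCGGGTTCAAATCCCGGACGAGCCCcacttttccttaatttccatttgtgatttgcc

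The median width was 1602 bp, against 346 bp over all constitutive regions, and the 77 regions together covered 127.8 kb. The widths bunched just above the minimum, with 38 regions under 1600 bp and 3 of 2000 bp or more. Just inside the minimum lay the promoters of Cul1, the scaffold of SCF ubiquitin ligases (1501 bp), and of Clip1, a microtubule plus-end protein (1502 bp), and a region 32624 bp from Rps6ka1 (1502 bp). Just outside lay Wbp4 (1496 bp), Hook3 (1490 bp) and Rmnd5a (1486 bp), so the minimum cut through a continuous tail.

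**Figure D1:**
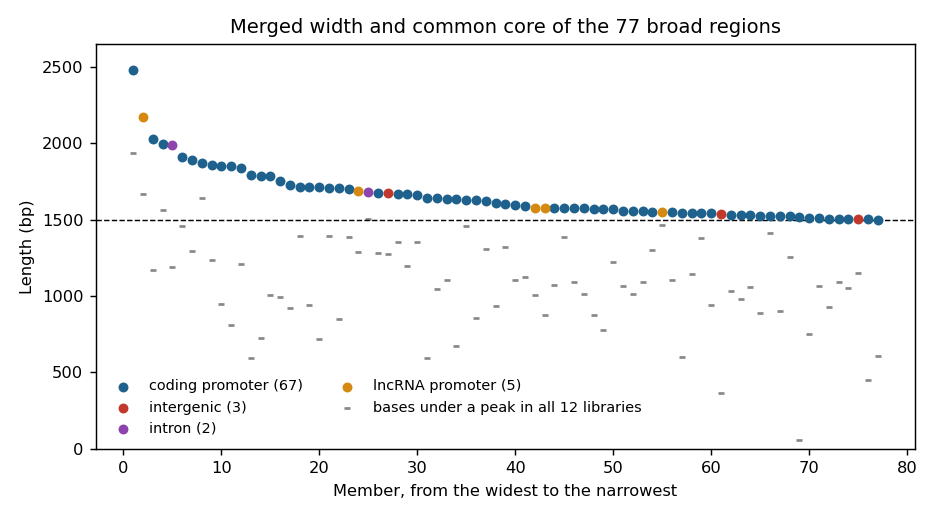
Merged width of each broad region in bp, ranked from the widest to the narrowest and coloured by position class, with a grey dash for the bases under a peak in all 12 libraries and a dashed line at the minimum of 1500 bp. The widest was at Crlf2 with 2479 bp, and 38 of 77 were under 1600 bp.

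The widest region, 2479 bp at chr5:109556611-109559089, covered the start of Crlf2, a subunit of the receptor for the cytokine TSLP. In PBS libraries its peaks covered 2224, 2194 and 2214 bp, in PFF libraries 2325, 2422 and 2366 bp, with MLi-2 2213, 2210 and 2072 bp, and with Rab5 ASO 2308, 2367 and 2235 bp. The 3 PFF values were above the PBS and MLi-2 values and overlapped those with Rab5 ASO. Covered bp were higher in PFF than in PBS without overlap in 11.4% of all constitutive regions and in 16.9% of the broad ones. They were lower with MLi-2 than in PFF in 18.4% and 23.4%. A promoter region of the lncRNA gene Dleu2, host of a miRNA cluster, was second at 2175 bp (chr14:61680850-61683024), and that of the nuclear receptor coactivator gene Ncoa2 followed at 2030 bp (chr1:13372353-13374382). Next came Rev3l, the catalytic subunit of a translesion DNA polymerase (1992 bp, chr10:39731135-39733126), an intron of Lncppara (1988 bp, chr15:85669643-85671630) and Csf2ra, the α chain of the GM-CSF receptor (1909 bp, chr19:61225644-61227552). Also among the 10 widest were the histone acetyltransferase gene Kat6b (1873 bp, chr14:21499556-21501428), the transcription factor gene Rfx7 (1860 bp, chr9:72531290-72533149) and the Mediator gene Med12l (1854 bp, chr3:59005498-59007351).

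The broad regions lay almost entirely at promoters, taken as 1000 bp on either side of an annotated start. Of the 77, 67 (87.0%) were at the start of a protein-coding gene and 5 (6.49%) at that of a lncRNA, while 3 (3.90%) were intergenic, 2 (2.60%) intronic and 0 exonic. Promoters made up 93.5% of the broad regions, against 25.7% of all constitutive regions. In the 1660 constitutive regions from 1000 bp up to the minimum the share was 92.7%, so a promoter position was shared with the next narrower class. Of the 72 promoter regions, 71 contained the start site itself. In 10 regions the starts of 2 or more coding genes lay inside or within 1000 bp, such as Cbx3 with Hnrnpa2b1 and Srsf2 with Mfsd11, and over all regions there were 77 such genes.

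Where a region had a single principal start (52 regions), it reached a median of 808 bp upstream and 858.5 bp downstream of that start. The longer arm was downstream in 28 regions and upstream in 24. Hnrnph1, which encodes a splicing factor, reached 70 bp upstream and 1629 bp downstream, whereas Msl2, of a histone acetyltransferase complex, reached 1361 bp upstream and 151 bp downstream. The median position of the highest summit was -106.5 bp, and in 12 of the 52 it lay within 100 bp of the start. The broad regions were thus not shifted to the same side of the start, and individual promoters extended in either direction.

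**Figure D2:**
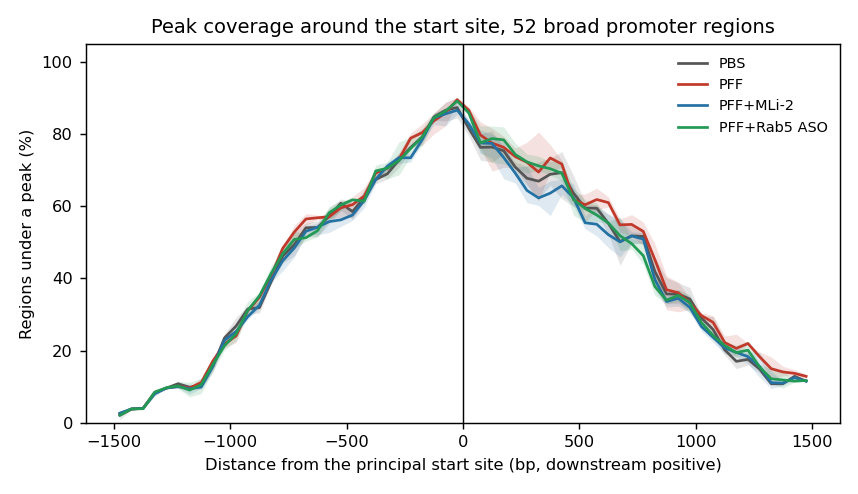
Share of 52 broad regions with 1 principal start that was covered by a peak, in bins of 50 bp of distance from that start in bp along the direction of transcription, with the mean of each group as a line and the range of its 3 libraries as a band. Coverage was highest near the start and fell on both sides of it in all 12 libraries.

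In single libraries, the broad regions were seldom 1 long peak. Over 924 pairs of a region and a library, the number of peaks ran from 1 to 9 with a median of 3 and a mean of 3.18, and 11.7% of pairs held a single peak. In narrower constitutive regions the mean was 1.28 and 77.5% of pairs held a single peak. A single peak of 1500 bp or more in at least 1 library was found for 26 regions, and 51 had none, so their width arose only from joining peaks within and between libraries. Zbtb14, a zinc finger factor gene, was the one region with the same number of peaks, 2, in all 12 libraries.

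The most divided region was the promoter of Pde3b, a cyclic nucleotide phosphodiesterase, with a mean of 6.08 peaks. It held 4, 5 and 6 peaks in PBS, 9, 7 and 6 in PFF, 4, 7 and 6 with MLi-2, and 5, 8 and 6 with Rab5 ASO, and all 4 groups overlapped. Clip1 held a mean of 6.00 and the zinc finger gene Zfp532 of 5.58. At the other end, the Peg3 region held 1 to 3 peaks per library and the promoter of the acetyltransferase gene Ep300 held 1 or 2.

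The stretch that was inside a peak in all 12 libraries had a median of 68.0% of the region's width. It was longest in proportion at the lncRNA gene 4932412D23Rik (94.5%) and shortest at Il3ra (3.89%). The region near Uaca (chr9:60886170-60887705, 1536 bp wide, 5800 bp from the gene) shared 367 bp among all libraries, whereas the Peg3 region (chr7:6727372-6729055, 1684 bp wide) shared 1504 bp. The broad regions thus ranged from stable blocks, such as Peg3, to clusters of sites whose covered parts differed from library to library, such as those near Uaca.

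Across libraries, the mean number of peaks per broad region was 3.15 ± 0.146 in PBS, 2.97 ± 0.204 in PFF, 3.34 ± 0.108 with MLi-2 and 3.26 ± 0.065 with Rab5 ASO (SD, n = 3 each). The mean share of the width that was covered was 84.9 ± 2.69%, 87.9 ± 2.5%, 83.1 ± 1.00% and 85.6 ± 2.48% in the same order. By library the share was 87.9, 82.6 and 84.2% in PBS, 89.0, 89.6 and 85.0% in PFF, 84.1, 82.1 and 83.2% with MLi-2, and 88.5, 84.1 and 84.3% with Rab5 ASO. The PFF values were above the 3 MLi-2 values and overlapped those of PBS and of Rab5 ASO. The same separation was present in the narrower constitutive regions, where peaks covered 79.1, 80.0 and 75.4% of the width in PFF and 72.5, 71.4 and 71.4% with MLi-2. A single peak of 1500 bp or more was found in 9, 5 and 6 regions in PBS, in 15, 13 and 7 in PFF, in 1, 3 and 5 with MLi-2 and in 7, 6 and 9 with Rab5 ASO. These long peaks were thus more numerous in each PFF library than in each MLi-2 library, while the counts in PBS and with Rab5 ASO overlapped those in PFF.

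The groups also contributed unequally to the merged width. When the 3 lists of 1 group were merged alone, 22 of the 77 regions still reached 1500 bp in PBS, 36 in PFF, 15 with MLi-2 and 21 with Rab5 ASO. With a group left out, 63 reached it without PBS, 54 without PFF, 67 without MLi-2 and 60 without Rab5 ASO. The choice of regions thus rested more on the PFF lists than on those of any other group, and covered lengths between groups are not independent of it. The lists differed too. They held 137417 to 184717 peaks, the median peak width was 127 to 134 bp in PBS, 135 to 139 bp in PFF, 130 to 135 bp with MLi-2 and 112 to 124 bp with Rab5 ASO, and the part of these differences in the covered lengths was not tested.

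**Figure D3:**
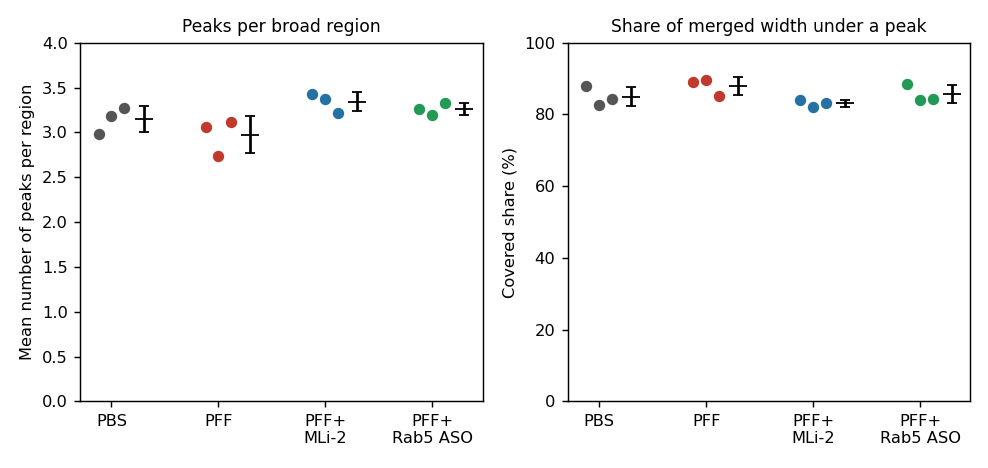
Mean number of peaks per broad region and mean covered share of the width in percent, 1 point per library with the mean and SD of each group (n = 3). The PFF libraries covered 85.0 to 89.6% and the MLi-2 libraries 82.1 to 84.1%.

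Height was taken as the highest fold enrichment that MACS2 reported for a region, and its percentile is its rank among the 71153 constitutive regions of the same library. On this scale the median of the regions' mean percentiles was 62.6 for the broad regions, against 47.9 for all constitutive regions and 70.8 for constitutive coding promoters. Broad regions were thus higher than the typical region and lower than the typical promoter on this measure. It takes the highest of all peaks in a region, and broad regions held a mean of 3.18 peaks against 1.28 in narrower ones. The part of this difference in the heights was not tested. The promoter of Ammecr1l was highest at 92.0 and the one above 90. The lowest were Il3ra (3.24), the tumour suppressor gene Ing1 (8.87), Crlf2 (9.15) and Peg3 (9.85), and 6 regions were under 25. The widest of all, Crlf2, was therefore among the lowest. The highest summit of a region held 24 to 94 fragments, as computed back from the fold and p-value of its peak, so single heights rest on few fragments.

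Transcription factors and coregulators, with 13 regions and a median width of 1627 bp, were the most frequent of the roles into which the genes were grouped (a grouping made after the members were known). They included the GC-box factors Sp1 (1670 bp) and Sp4 (1627 bp), the ciliary gene regulator Rfx3 (1574 bp) and its relative Rfx7, and 2 genes of the circadian system, Clock (1541 bp) and its repressor Bhlhe40 (1523 bp). Sp4 was covered for 1512 to 1598 bp by 1 or 2 peaks in each library. Clock was covered for 1141 to 1372 bp by 2 to 4 peaks.

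Chromatin regulators accounted for 9 regions. They included the acetyltransferases Ep300 (1575 bp) and Kat6b, the methyltransferase Setd7 (1714 bp), the SET domain gene Setd5 (1662 bp), the heterochromatin protein gene Cbx3 (1550 bp) and Ctcf, which encodes the main insulator protein (1555 bp). Setd7 was covered by peaks for 1440, 1273 and 1244 bp in PBS, 1539, 1471 and 1477 bp in PFF, 1398, 1183 and 1338 bp with MLi-2, and 1302, 1330 and 1336 bp with Rab5 ASO. Each PFF value was above the other 9, as was the case for 3 broad regions (Il3ra, Setd7 and Ube2d3) and for 3.2% of all constitutive regions. Without the PFF lists the Setd7 region was 1405 bp wide, so it too passed the minimum only through them, and its height percentiles overlapped between groups.

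Signalling genes gave 9 regions, among them Gsk3b, a kinase of the Wnt pathway that also acts on tau (1623 bp), Cdk19 of the Mediator kinase module (1608 bp) and the Ras-like GTPase gene Rap2a (1567 bp). RNA-binding and translation genes gave 8, such as Hnrnph1 (1700 bp), Srsf2 (1589 bp), Eif4a1 (1557 bp) and Cpeb2 (1505 bp). In neurons, Cpeb2 is one of the factors that control translation through the poly(A) tail. Transport and cytoskeleton genes gave 7, with the axonal kinesin Kif1b (1785 bp), the ER contact-site protein Vapa (1634 bp), Sept7 (1626 bp) and the sodium-calcium exchanger Slc8a3 (1521 bp). The ubiquitin system gave 4, which were Fbxl17 (1755 bp), Ube2d3 (1705 bp), Usp1 (1528 bp) and Cul1.

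The 5 widest regions away from a promoter were the intron of Lncppara, the intron of Peg3, the region near Wnt11 (1674 bp), that near Uaca and that near Rps6ka1. The Wnt11 region, at chr7:98814987-98816660, contained 2 tRNA-Pro genes of the RefSeq annotation, n-TPtgg8 and n-TPagg7, and was the one member with a tRNA gene. Its peaks covered 1427 to 1580 bp in the 12 libraries. The imprinted Peg3 region held 1594 to 1678 bp of peaks in each library at folds of 4.41 to 4.96. The Peg3 region was thus covered nearly throughout in all 12 libraries at a low height.

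In base composition the broad regions were CpG islands with 4 exceptions. Their median GC content was 68.2%, against 51.4% over constitutive regions and 64.0% over constitutive coding promoters. They held a median of 9.61 CG dinucleotides per 100 bp (1.67 and 7.55 in those classes), with an observed-to-expected ratio of 0.847 (0.279 and 0.751). The ratio was above 0.6 in 73 of 77 regions, against 20.4% of constitutive regions and 72.4% of constitutive coding promoters. Regions from 1000 bp up to the minimum were close to the broad ones, with a median GC content of 67.5%, 9.31 CG dinucleotides per 100 bp and a ratio of 0.828. The exceptions were Il3ra (0.290), Peg3 (0.317), the region near Uaca (0.382) and the lncRNA gene Gm26660 (0.536). Little of their sequence was repeated elsewhere. In 53 regions 0% of 31-base words occurred elsewhere on the 21 chromosomes searched, and the highest share was 6.62% (Rmi1).

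Short motifs were searched on both strands of 300 bp around each summit. The GC box GGGCGG, read by Sp1 and Sp4, was present in 81.8% of the broad regions, against 22.0% of constitutive regions and 63.6% of constitutive coding promoters. The E-box CACGTG, which Clock and the lysosomal regulator TFEB can bind, was present in 14.3% (5.94% and 9.56%), and the NF-Y box CCAAT in 46.8% (34.1% and 34.8%). GCGCATGC, of the NRF1 site, was present in 7.79% (1.60% and 4.46%) and TCTCGCGA in 3.90% (0.420% and 1.70%). The CRE TGACGTCA was present in 2.60% (1.02% and 3.00%), and the ETS site CCGGAAGT in 1.30% (1.64% and 6.06%). In the regions from 1000 bp up to the minimum, the shares were 79.8% for the GC box, 11.4% for the E-box, 38.9% for CCAAT, 6.45% for GCGCATGC, 3.31% for TCTCGCGA, 3.01% for the CRE and 4.70% for the ETS site, so most of these motifs were about as frequent there as in the broad regions. These are matches of letters in a window, and binding was not measured.

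Whole regions were also searched for 3 words, of which GGAAGT and TGTCAATC were chosen after the printed windows had been seen. GGAAGT occurred 10 times in the Crlf2 region, more than in any other of the 71153 constitutive regions, 8 times at Elf2, itself an ETS factor gene, and 7 times at Il3ra. The lncRNA gene Gm7461 held 6 copies and Csf2ra 5, and Ing1, the second lowest of the broad regions in height, held 1. The word TGTCAATC occurred 6 times at Il3ra, the highest count over all constitutive regions, and 3 times at Crlf2, and was present at least once in 0.848% of constitutive regions. The YY1 box GCCATCTT occurred 8 times in the Peg3 region, all on the minus strand, and at most once in any other broad region. Wider regions have more room for each word, and these counts are descriptions.

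Crlf2, Csf2ra and Il3ra form a group of their own, which was made after their values were seen. In humans these genes are neighbours in the pseudoautosomal region of the sex chromosomes, while in the mouse they lie on chromosomes 5, 19 and 14. All of them encode receptor chains for cytokines of the haematopoietic system. Csf2ra was covered for 1660, 1544 and 1700 bp in PBS, 1683, 1830 and 1790 bp in PFF, 1741, 1580 and 1641 bp with MLi-2, and 1858, 1807 and 1612 bp with Rab5 ASO. The PFF and PBS values overlapped for Csf2ra, and its height percentile, 15.7 to 39.3 over the 12 libraries, was higher than those of Crlf2 (5.75 to 14.8) and Il3ra (0.443 to 8.95) in each library.

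The Il3ra region (ENSMUSG00000068758.8, which encodes the α chain of the interleukin-3 receptor) was the one broad region at which the PFF libraries lay above the 9 others in height, a pattern found in 1.3% of all constitutive regions. It spans chr14:14347104-14348621 on GRCm38, begins 512 bp downstream of the principal start and 53 bp downstream of the nearest annotated start at 14347051, and also holds the start of the antisense transcript Gm48860 at 14347264. Its peaks covered 437, 723 and 231 bp in PBS (464 ± 247, SD, n = 3) and 1342, 1395 and 1286 bp in PFF (1341 ± 54.5). They covered 388, 531 and 545 bp with MLi-2 (488 ± 86.9) and 684, 1063 and 463 bp with Rab5 ASO (737 ± 303). The 3 PFF libraries were above all 9 others, and the other 3 groups overlapped each other. Merged alone, the longest stretch was 1518 bp from the PFF lists, 522 bp from PBS, 387 bp with MLi-2 and 470 bp with Rab5 ASO. Without the PFF lists it was 541 bp, so this region passed the width minimum only through the PFF libraries. Differences between PFF and the other groups were thereby built into its selection, and its values are given as a description with no test.

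The height of the Il3ra region was likewise highest in the PFF libraries. Its highest fold was 3.39, 3.81 and 3.35 in PBS, 4.63, 4.84 and 4.80 in PFF, 3.64, 4.0 and 3.88 with MLi-2, and 3.39, 3.78 and 3.46 with Rab5 ASO. The means were 3.52 ± 0.253, 4.76 ± 0.115, 3.84 ± 0.185 and 3.54 ± 0.209 (SD, n = 3 each). The PFF libraries did not overlap the other 9. The number of peaks was 3, 5 and 2 in PBS, 3, 2 and 4 in PFF, 3, 3 and 4 with MLi-2, and 5, 9 and 5 with Rab5 ASO, so the PFF libraries covered more of the region without more peaks. Its summit held 25, 28 and 24 fragments in PBS and 48, 55 and 45 in PFF, against 27, 30 and 31 with MLi-2 and 34, 35 and 32 with Rab5 ASO. In bulk ATAC-seq, a change in the share of a cell type and a change in accessibility per cell cannot be told apart. Since interleukin-3 receptor genes are active in microglia and other myeloid cells, the 8 microglia marker promoters were counted beside it. Peaks were found at 3, 0 and 0 of them in the PBS libraries, at 2, 2 and 3 in PFF, at 1, 0 and 2 with MLi-2, and at 1, 0 and 0 with Rab5 ASO. Of these markers, 5 had no peak in any library, among them Cx3cr1, Csf1r and Aif1, and the part of such cells in the Il3ra values was not tested.

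**Figure D4:**
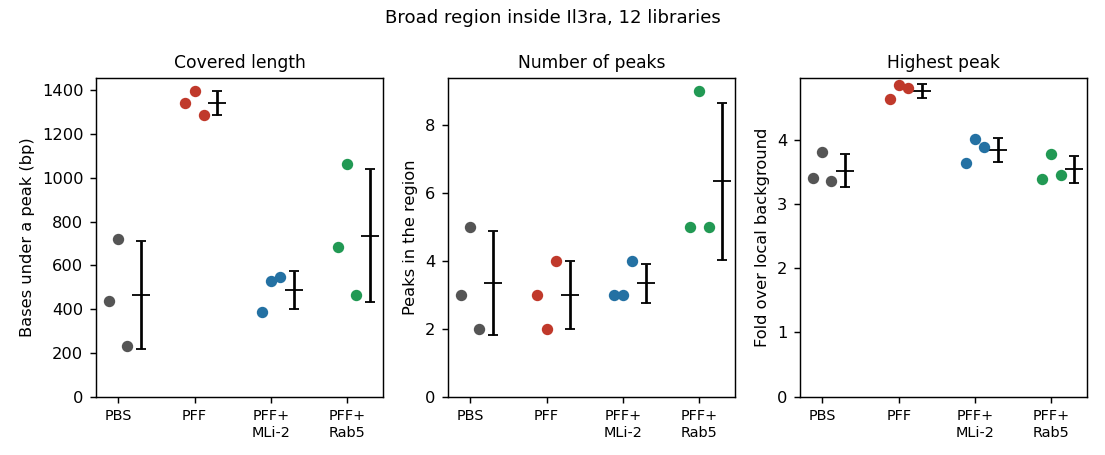
The Il3ra region: covered length in bp, number of peaks and highest fold enrichment, 1 point per library with the mean and SD of each group (n = 3). The PFF libraries covered 1286 to 1395 bp at folds of 4.63 to 4.84, above the 9 other libraries.

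Comparisons between groups asked what PFF changed relative to PBS, and what MLi-2 or Rab5 ASO changed relative to PFF. The 3 comparisons share the PFF libraries. For each, limma was fitted over all 71153 constitutive regions with 6 libraries, on the height rank as a normal score (the rank turned into units of SD) and on log2 covered length centred on each library's median. P-values were adjusted over all regions by Benjamini-Hochberg, with calls at an adjusted p under 0.05. Covered length enters the rule on width, so for single broad regions its values are given without p, and the counts of broad regions called in that measure are descriptions.

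PFF against PBS gave no call for height in any of the 71153 regions (0%, limma). An unadjusted p under 0.05 was found in 6927 regions. It was found in 1 of the 77 broad ones, Il3ra, a smaller share than over all regions. Il3ra was selected through the PFF lists, and its test is not read. The largest fall was at Cul1, whose percentile was 84.1, 77.7 and 80.2 in PBS against 70.7, 72.1 and 63.9 in PFF. Its region was 1460 bp wide without the PBS lists and 1489 bp without the PFF lists, so its values too are a description. For covered length, limma called 7 regions (0.00984%) and 0 broad ones, with an unadjusted p under 0.05 in 6240 regions. No region was called when any 1 of the 6 libraries was left out, and 19 were called when all 12 libraries shared 1 fit. The largest fall among the broad regions was at Gm26660, which was covered for 1476, 1256 and 1405 bp in PBS and 1239, 1196 and 1217 bp in PFF, and without the PBS lists it was 1148 bp wide, so it passed the minimum only through the group in which more of it was covered.

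MLi-2 against PFF gave no call for either measure over all regions (0% for height and 0% for covered length, limma). When all 12 libraries shared 1 fit, 55 regions were called for height and 39 for covered length, with 0 broad regions in either. An unadjusted p under 0.05 for height was found in 8145 of the 71153 regions. It was found in 6 of the 77 broad ones, a smaller share than over all regions. They were Il3ra, Gsk3b, Cdc42ep3, Lrba, Ube2d3 and Hnrnpdl. Without the PFF lists Il3ra was 541 bp wide, Cdc42ep3 601 bp and Lrba 1406 bp. Il3ra, Cdc42ep3 and Lrba thus passed the width minimum only with the PFF lists, and nothing is read from their tests. The largest rise was at Ube2d3, a ubiquitin-conjugating enzyme, by 0.514 (SE 0.186, adjusted p = 0.361), with folds of 8.01, 8.30 and 8.40 in PFF and 8.96, 9.17 and 9.22 with MLi-2. PBS folds for Ube2d3 were 8.94, 8.36 and 8.38, and overlapped those of PFF. For covered length, 7827 regions had an unadjusted p under 0.05. The largest rise among the broad regions was at Msl2, which was covered for 1200, 1257 and 1285 bp in PFF and 1270, 1353 and 1428 bp with MLi-2, and was 1458 bp wide without the MLi-2 lists and 613 bp without the Rab5 ASO lists, so it passed the minimum only with both of them.

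Rab5 ASO against PFF gave 2754 calls for height (3.87% of regions, 1417 higher and 1337 lower), of which 1 was a broad region (1.3% of 77). The 2754 calls became 0 without Rab5 ASO replicate 1 and 358 to 987 without each of the other 5 libraries. The broad region called was Il3ra, which was lower with Rab5 ASO. Since it passed the width minimum only through the PFF lists, in which it was high, the call is counted here and nothing is read from it, and 0 of 6 fits without 1 library kept it. The largest rise was at Slc8a3, 0.578 (SE 0.219, adjusted p = 0.166, limma), with percentiles of 34.4, 48.8 and 24.3 in PFF and 58.0, 57.7 and 58.3 with Rab5 ASO. For covered length, limma called 746 regions (1.05%) and 0 broad ones, with an unadjusted p under 0.05 in 12878 regions. The 746 calls became 9 without PFF replicate 3, 64 without PFF replicate 1 and 81 without PFF replicate 2. They became 74 without Rab5 ASO replicate 3, 403 without Rab5 ASO replicate 2 and 617 without Rab5 ASO replicate 1. With the replicate number as a block they became 0. The largest rise among the broad regions was at Phf21a, a reader of unmethylated histone H3, which was covered for 1262, 1222 and 1081 bp in PFF and 1380, 1457 and 1391 bp with Rab5 ASO, and was 1409 bp wide without the Rab5 ASO lists, so it also passed only through the group in which more of it was covered.

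Below the level of single calls, the height ranks of many broad regions leaned one way in each comparison, as did those of the next narrower class. Each comparison uses the PFF libraries, and only 54 of the 77 regions reached 1500 bp without the PFF lists. Eif4a1 (727 bp without them) and Cul1 (1489 bp) were among those that did not. The counts and medians for height are therefore descriptions, and what the choice of regions added to them was not tested. With MLi-2, 38 of 77 regions (49.4%) had 3 percentiles above those of the 3 PFF libraries, beside 10.1% of all regions, and 1 (1.3%), Il3ra, had them below, beside 7.54%. The 38 included Gsk3b, Sp1, Sp4, Ep300, Kat6b and Eif4a1. In PFF against PBS, 8 regions (10.4%) were lower without overlap, beside 8.01%, a share near that of all regions, and 1 (1.3%), Il3ra, was higher, beside 7.08%. The 8 were Ube2d3, Hnrnph1, Vapa, Ep300, Ammecr1l, Eif4a1, Nr2c2 and Cul1. With Rab5 ASO, 18 (23.4%) were above PFF, beside 13.6%, and 1 (1.3%), Il3ra, was below, beside 12.4%. Ep300, for example, stood at percentiles of 77.3, 84.9 and 82.4 in PBS, 72.7, 68.2 and 74.7 in PFF, 79.8, 80.3 and 79.9 with MLi-2, and 78.0, 81.9 and 78.5 with Rab5 ASO. For Ep300, Cul1, Nr2c2, Ube2d3 and Vapa, 5 of the 77, the 3 PFF libraries were below all 9 others, as they were in 1.27% of all constitutive regions. This was on the rank of the fold, and the pattern was not counted on the rank of the -log10 q-value.

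The median difference in height rank over the 77 regions was -0.155 for PFF against PBS (all regions -0.0204), 0.227 for MLi-2 against PFF (0.0139) and 0.133 for Rab5 ASO against PFF (0.00977). It was above 0 in 9, 71 and 67 of the 77 regions. Over the 1737 constitutive regions of 1000 bp or more, the broad ones included, the medians were -0.128, 0.176 and 0.130, above 0 in 333, 1515 and 1346, so the lean was not particular to the broad regions. Leaving out 1 library moved the median for PFF against PBS to -0.0684 without PBS replicate 2 (25 above 0) and to -0.263 without PBS replicate 1 (3 above 0), and that for Rab5 ASO to 0.204 without Rab5 ASO replicate 1. For MLi-2 it stayed between 0.176 and 0.266. These ranks also depended on which of the peak caller's columns was used. With the rank of the -log10 q-value in place of the fold, the medians were -0.011, 0.0457 and 0.0374, above 0 in 37, 49 and 43 regions. The counts without overlap then became 6 regions lower in PFF than in PBS (7.79%, beside 7.45%), 13 higher with MLi-2 (16.9%, beside 8.44%) and 9 higher with Rab5 ASO (11.7%, beside 13.5%). With that column, the shares for PFF and for Rab5 ASO were thus near those of all regions, and that for MLi-2 fell from 49.4 to 16.9%.

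Covered length was compared on 3 scales. Centred on each library's median, the median log2 difference of the broad regions was -0.06 for PFF against PBS (all regions -0.03), 0.09 for MLi-2 against PFF (0.04) and 0.07 for Rab5 ASO against PFF (0.03). Without centring, which moves every region alike, the values were 0.04 (0.07), -0.07 (-0.11) and -0.03 (-0.07), so the signs turned while the broad regions stayed on the same side of all regions. On the rank of the covered length the medians were 0, -0.0145 and 0, above 0 in 39, 36 and 37 of the 77 regions. Since the 77 were chosen as the widest regions, this rank leaves little room for a common shift. It therefore cannot show whether there was a lean, and nothing is read from it.

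**Figure D5:**
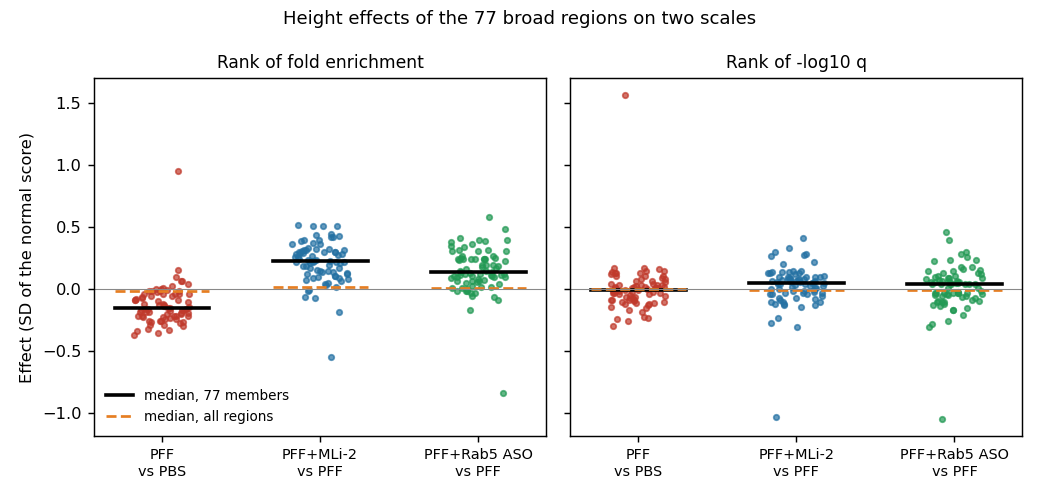
Difference in height rank (normal score, in units of SD) of each broad region in the 3 comparisons, from limma, with the fold ranked on the left and the -log10 q-value on the right, 1 point per region and lines at the medians of the 77 and of all regions. Points below 0 were lower in the group named first. The point far from the rest is Il3ra, which was selected through the PFF lists.

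Gene lists relevant to the treatments were looked up at promoters. Of 25 genes of Rab5, LRRK2 and the early endosome, 0 had a broad region, although 11 (44.0%) had a constitutive region of 1000 bp or more, up to 1194 bp. Over 20780 coding genes, 77 (0.371%) had a broad region and 1810 (8.71%) one of 1000 bp or more. Of these 20780, 13047 had a constitutive region at the start, against 24 of the 25 genes of Rab5, LRRK2 and the early endosome. Shares of the lists and of all coding genes are therefore not compared like for like. Of 33 genes of the lysosome and its regulator TFEB, 3 reached 1000 bp and the widest was 1264 bp. Of 30 activity-induced immediate early genes and of 30 synapse genes, 5 each reached 1000 bp and 0 were broad. Of 27 senescence, p53 and FoxO genes, 6 reached 1000 bp, and of 20 heat shock genes 8 did, with 0 broad in either list. Among 32 cortical projection neuron factors, 3 reached 1000 bp, and among 23 interneuron factors 1 did, again with 0 broad. Housekeeping genes had 2 broad regions among 24 (Hnrnpa2b1 and Eif4a1), and chromatin and transcription regulators 2 among 30 (Ep300 and Ctcf). At 1000 bp or more these lists had 8 (33.3%) and 14 (46.7%).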

How the data were processed

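ATAC-seq peak lists of 12 libraries, 3 per group, were analysed. Per the labels and the study's methods, the authors ran MACS2 (2.2.7.1) separately for every library, after adapter trimming in Trim Galore (0.6.7) and alignment by Bowtie2 (2.5.1) on GRCm38. The caller's options, the handling of duplicates and any Tn5 shift are not given in the sources used here. For each peak, the deposited columns give the fold enrichment over local background, the −log10 p-value and the −log10 q-value. The deposited score column, which the caller derives from the q-value, was not used. Read depth is not in the lists, and only the fragments at summits of broad regions could be computed back from fold and p (924 of 924 solved within 0.001).

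Peaks overlapping by 1 bp or more were merged with Python (3.11.15), numpy (2.4.6) and pandas (2.3.3), and positions were taken from GENCODE vM21, with promoters at 1000 bp on either side of a start. Groups were compared with limma (3.58.1) in R (4.3.3), as described with the results, after it had been tested on simulated data. The count-based test of the study could not be used on peak lists. Regions were named by the protein-coding gene with a start within 1000 bp, otherwise by the gene they lay in or the nearest one. Named regions were the 10 widest, the 5 widest away from promoters, the 3 on either side of the width minimum, the 3 with most peaks, those with the largest differences in each comparison, members of the gene lists, and others named for their values. 1 region that meets these rules is not reported here. The members and lists were chosen with earlier results of these data known. Other width minimums, overlaps, peak thresholds, scales, promoter windows and sets of libraries were tried as alternatives.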

Additional observations from a re-analysis of the deposited data

How the results depend on the processing

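The number of broad regions followed the rule closely. It was 44 instead of 77 when peaks were merged only at overlaps of 50 bp or more, 1737 at a width minimum of 1000 bp and 3 at 2000 bp, and 68 to 75 when 1 library was left out. The share at promoters was 92.6 to 94.4% without 1 library and 100% at 2000 bp. The 1 height call in Rab5 ASO against PFF became 5 at 1000 bp or more, and 0 at 2000 bp, at an overlap of 50 bp, on the log2 fold scale, with the replicate number as a block and without each of the 6 libraries in turn (0 to 0). For covered length in the same comparison, the count became 1 at 1000 bp or more. Same-numbered replicates deviated together only weakly (correlations of 0.004 to 0.069), and no source used here says that a number marks a shared pregnancy, so the libraries were not treated as pairs. The block gave 1726 height calls over all regions instead of 2754, and 0 instead of 746 for covered length. Without 1 library the height calls over all regions were 0 to 987, with 0 without Rab5 ASO replicate 1, and the covered-length calls 9 to 617. With all 12 libraries in 1 fit, covered length gave 1480 calls in that comparison. For MLi-2 against PFF, the 0 calls of either measure became 55 for height and 39 for covered length in that fit, and 7 for covered length that was not centred. The cause of these changes was not tested. Read depth is not in the lists, and the summits of broad regions held 24 to 94 fragments.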

Other observations

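Outside chromosomes 1 to 19, 0 of 1242 constitutive regions on chromosome X and 0 of 13 on chromosome Y were 1500 bp or wider, against 1 of 57 on unplaced scaffolds.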
